A study of Mus musculus with 78 samples.

Results

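The ligated left common carotid artery (LCA) of atorvastatin-treated mice was compared at 2 weeks and at 48 h after surgery, across all genes. This comparison took every array of the LCA under atorvastatin at these times, which is 9 of the 78 arrays of the series, 5 at 2 weeks (mice 6 to 10) and 4 at 48 h (mice 6 to 9). The mouse numbers name different animals at the 2 times, so the comparison is unpaired. All 39 mice of the series had partial ligation of the LCA, with the right common carotid artery (RCA) left unligated as the control artery. Both groups received atorvastatin at 10 mg/kg/day by mouth each day, starting before surgery. The groups set beside them were the RCA of the same 9 mice and the LCA of vehicle-treated mice, 5 at 2 weeks and 5 at 48 h. RNA was flushed from the lumen of each artery with Qiazol lysis reagent, so it was enriched for endothelium but not sorted. Strain, sex and age are not in the labels used here.

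Partial ligation lowers blood flow in the carotid and makes it disturbed, and endothelium that senses disturbed flow loses expression of the flow-dependent factors Klf2, Klf4 and Nos3. In this model leukocytes adhere and enter the wall, and smooth muscle cells and matrix later thicken the inner layer. Atorvastatin inhibits HMG-CoA reductase, the rate-limiting enzyme of cholesterol synthesis.

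Values are log2 expression values normalized by RMA, a method that puts all arrays on a common distribution, so a log2 difference of 1 is a doubling. A level near 3 to 4 is at the low end of these arrays, whose medians lay between 4.589 and 4.773 over the series. Levels of different genes come from different probes and are not compared with each other. Values by mouse are given in the order of mice 6, 7, 8, 9 and 10 at 2 weeks and of mice 6, 7, 8 and 9 at 48 h. Each log2 difference is 2 weeks minus 48 h, with its standard error (SE) from a limma fit over all 39 LCA arrays. A gene was called when its p-value, adjusted over 11344 tested genes by Benjamini-Hochberg, was under 0.05.

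The 2-week arrays were alike and the 48 h arrays were not. Over the tested genes, 2-week arrays correlated with each other at r = 0.967 to 0.986. Among 48 h arrays, mice 6 and 9 correlated at 0.978, while mouse 8 reached at most 0.889 with the other 48 h arrays. The LCA array of 48 h mouse 7 correlated at 0.969 with the RCA of the same mouse and at 0.95 to 0.97 with the LCA at 24 h, but at 0.861 to 0.889 with the other 48 h arrays. Its Klk10 level was 6.54 in the LCA, against 10.5 in its RCA. Its Angptl4 level was 5.76 in the LCA and 5.47 in its RCA, against 7.73 to 8.58 in the other 48 h LCA arrays. Why this array was like its RCA was not tested. 48 h mouse 8 had a mean level of 9.92 over the immediate early genes and 8.52 over fibroblast markers, both above all other arrays of the comparison. Many counts of list members are therefore also given without 48 h mouse 7, and without 48 h mice 7 and 8. Samples were handled in 4 batches whose members are not named in the labels used here, so the part of batch was not tested.

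Between 2 weeks and 48 h, 1675 genes were called, or 14.8% of those tested. Of these, 798 were higher at 2 weeks (7.03%) and 877 lower (7.73%), and 445 and 366 of them differed by at least 1 log2 unit. Centring each array on its own median, in place of the deposited scale, gave 631 higher and 1286 lower, so the split between higher and lower depended on the scaling. The median difference over all tested genes was -0.036 log2. The count was 2718 without 48 h mouse 7 and 3213 without mice 7 and 8; of the 1675 genes, 1556 and 1351 were called in the same direction in those fits. In 683 genes every 2-week array lay above every 48 h array (6.02%), and in 593 every 2-week array lay below (5.23%). The list counts below are to be read beside these shares, since a count of a few members can lie near them.

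The largest rises at 2 weeks were genes of contractile cells and of their matrix. Among called genes whose arrays did not overlap between the times, the 12 largest rises were Itga8, Myh11, Speg, Actg2, Rcan2, Ccn3, Postn, Acan, Hspb7, Igfbp2, Myom1 and Cnn1. Their 2-week levels ran from 7.07 to 12.15, against 2.93 to 7.17 at 48 h. Itga8, the integrin alpha 8 subunit of contractile and mesenchymal cells, was at 11.28, 11.49, 11.61, 11.64 and 12.15 at 2 weeks, against 4.39, 6.02, 5.08 and 3.60 at 48 h. No 2-week value of Itga8 came near a 48 h value, and its difference was 6.86 ± 0.71 (SE; adjusted p = 2.14e-08). The 12 largest falls by the same rule were Prg4, Igf2, Steap4, Il33, Mal, Hdc, Pdpn, Mmp3, Il1r2, Slc4a4, Gfpt2 and Klk11. Their 2-week levels ran from 2.60 to 6.01, against 4.64 to 10.72 at 48 h.

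**Figure D1:**
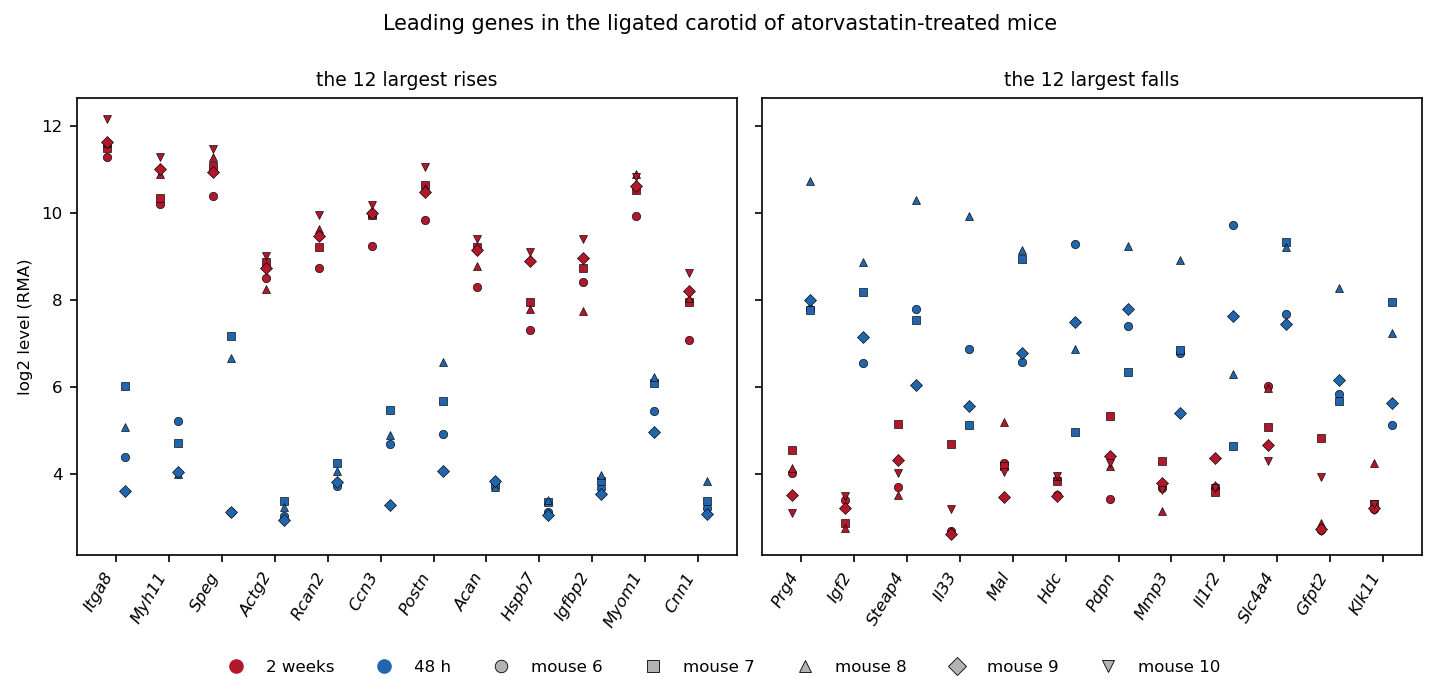
Log2 RMA level (y axis) of the 12 genes with the largest rises (left) and the 12 with the largest falls (right), 1 point per mouse, 2 weeks in red left of 48 h in blue, with the symbol giving the mouse number. The genes were chosen to have all 2-week points on one side of the 48 h points, and 48 h mouse 8 is the highest of its group in Prg4 (10.72).

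Promoter stretches of 3 of these genes are shown because they stand for both directions and because 1 carries the CArG box, the serum response factor site of many contractile genes, and another the AP-1 site TGAGTCA, which Fos and Jun family proteins bind. They are RefSeq sequences of build GRCm38.p6, the 250 bases before the annotated start, 5′ to 3′ on the gene's strand, with a CArG box or AP-1 site in capitals:
Itga8 (chr2:12301945-12302194, minus strand): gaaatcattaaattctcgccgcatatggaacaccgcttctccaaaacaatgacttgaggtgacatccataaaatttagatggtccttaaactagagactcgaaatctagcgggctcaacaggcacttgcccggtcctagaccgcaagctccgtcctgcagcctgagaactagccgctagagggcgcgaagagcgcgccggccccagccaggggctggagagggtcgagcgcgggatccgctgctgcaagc
Myom1 (chr17:71019307-71019556, plus strand): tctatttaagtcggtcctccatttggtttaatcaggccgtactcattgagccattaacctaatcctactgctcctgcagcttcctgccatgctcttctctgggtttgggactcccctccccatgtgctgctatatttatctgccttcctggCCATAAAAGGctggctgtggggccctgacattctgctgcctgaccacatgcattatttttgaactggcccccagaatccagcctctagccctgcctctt
Mmp3 (chr9:7445572-7445821, plus strand): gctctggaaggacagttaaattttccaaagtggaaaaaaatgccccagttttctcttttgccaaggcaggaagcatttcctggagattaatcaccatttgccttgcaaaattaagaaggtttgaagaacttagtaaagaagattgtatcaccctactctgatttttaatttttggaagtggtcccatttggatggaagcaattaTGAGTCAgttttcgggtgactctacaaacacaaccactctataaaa
Of the 12 largest rises, 9 had an entry in the promoter table, and 1 of them (Myom1) held a CArG box on either strand. Of the 12 largest falls, 11 had an entry, and 1 (Igf2) held it. Over all 32851 promoters of the table the share was 1.47%. TGAGTCA on either strand was in 2 of the 9 rises (Igfbp2 and Rcan2) and in 2 of the 11 falls (Gfpt2 and Mmp3), against 4.46% of all promoters. These matches describe the letters of the windows only.

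Smooth muscle contractile genes rose together. Of 12 tested, 9 rose and none fell, with a median difference of 2.99. In 10 of the 12 the arrays of the 2 times did not overlap. Over all tested genes 7.03% rose, and in 6.02% every 2-week array lay above every 48 h array. A stricter filter on low values, which tested only genes above the array median on at least 39 of the 78 arrays, left 5 calls. The rises numbered 10 without 48 h mouse 7 and 10 without mice 7 and 8. Their mean level was 9.18, 9.53, 9.58, 9.73 and 10.04 at 2 weeks, against 6.37, 6.42, 6.51 and 6.02 at 48 h, so the 4 mice at 48 h were alike here. In RNA of a whole flush, more cells of a type and more RNA per cell cannot be told apart.

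Myh11, the smooth muscle myosin heavy chain, was at 10.19, 10.33, 10.90, 10.999 and 11.27 at 2 weeks, against 5.22, 4.7, 4.0 and 4.04 at 48 h. It rose by 6.25 ± 0.66 (adjusted p = 2.9e-08). Actg2, an actin of smooth muscle, was at 8.49, 8.87, 8.25, 8.72 and 9.01, against 3.02, 3.38, 3.22 and 2.93, and rose by 5.53 ± 0.49 (adjusted p = 1.01e-09). Actg2 was below the array median in every 48 h mouse, whereas Myh11 was above it in 48 h mouse 6, and both were well above it in every 2-week mouse. Cnn1 (calponin 1) rose by 4.6 ± 0.47 and Tpm2 (tropomyosin 2) by 3.16 ± 0.44. Acta2, the smooth muscle actin that is also present in myofibroblasts, was high at both times, at 12.34 to 12.70 at 2 weeks against 10.47 to 11.74 at 48 h, and its difference of 1.18 ± 0.48 was not called (adjusted p = 0.0952). Speg, a myosin light chain kinase family member, rose by 6.01 ± 0.94, and Myom1 (myomesin 1), a gene of striated sarcomeres, by 4.89 ± 0.55. Hspb7, a small heat shock protein of muscle, rose by 4.98 ± 0.42, and Rcan2, a regulator of calcineurin, by 5.44 ± 0.52. The skeletal muscle markers showed no such rise: 1 of 8 measured was tested, and it was not called.

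Collagens and matricellular genes were higher at 2 weeks, and elastic fibre genes were mixed. Of 17 tested collagens, 9 rose and none fell (median 1.26). Of 13 elastic fibre and crosslinking genes 6 rose and 2 fell, and of 17 matricellular proteins and proteoglycans 7 rose and none fell. The collagen count was 7 rises and 1 fall without 48 h mouse 9, and the matricellular count 4 rises. Elastic fibre genes rose in 3 cases and fell in 3 without 48 h mouse 6, and rose in 3 and fell in 2 without 48 h mouse 9 or 2-week mouse 10. Without 48 h mice 7 and 8 the rises were 10, 8 and 7.

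Acan (aggrecan), the large proteoglycan best known from cartilage, was at 8.29, 9.20, 8.78, 9.13 and 9.39 at 2 weeks, against 3.80, 3.73, 3.68 and 3.83 at 48 h. Its rise of 5.20 ± 0.47 (adjusted p = 1.86e-09) came with close agreement among the 48 h mice (SD 0.07). Col2a1, a cartilage collagen, also rose, with 4.37, 5.62, 4.40, 4.81 and 5.34 against 2.79, 2.82, 2.58 and 2.74. Mgp (matrix Gla protein), an inhibitor of calcification, rose by 0.65 ± 0.13. Among collagens of the basement membrane zone, Col4a5 rose by 3.79 ± 0.54 and Col15a1 by 3.09 ± 0.43, and the microfibrillar Col6a3 by 2.37 ± 0.47.

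Eln (elastin) was at 12.18, 11.74, 12.14, 12.25 and 12.53 at 2 weeks, against 9.87, 10.44, 9.76 and 9.63 at 48 h, a rise of 2.25 ± 0.36 (adjusted p = 4.43e-05). Fbln5, which assembles elastic fibres, rose by 3.12 ± 0.59. Fbln1, another fibulin, fell by 2.28 on the log2 scale (SE 0.66), with 48 h values of 7.75, 9.34, 9.97 and 7.29 that were highest in mice 7 and 8. The adjusted p of Fbln1 was 0.0747 without 48 h mouse 8 and 0.258 without mice 7 and 8. Postn (periostin), a matricellular protein of healing tissue, rose by 5.21 ± 0.70, and Ccn3, a secreted CCN family protein, by 5.29 ± 0.61. Tnc (tenascin C) rose by 2.81 ± 0.61 and Fn1 (fibronectin) by 1.18 ± 0.25. The collagenase Mmp13 rose by 1.82 ± 0.34 and the gelatinase Mmp2 by 1.47 ± 0.37. Mmp3 (stromelysin 1) went the other way, at 3.66, 4.29, 3.14, 3.78 and 3.63 against 6.78, 6.83, 8.92 and 5.39, and fell by 3.28 (SE 0.67, adjusted p = 0.000817).

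Several genes linked to TGF-beta, the growth factor that drives contractile and matrix genes in many mesenchymal cells, also rose. Of 13 TGF-beta signalling genes 5 rose and 1 fell; without 48 h mouse 7, 5 rose and 1 fell, without mouse 8, 5 and none, and without both, 7 and none. Ltbp2, a matrix protein of the latent TGF-beta binding family, was at 11.11, 11.36, 10.70, 11.03 and 11.03 at 2 weeks, against 6.97, 6.74, 7.42 and 7.22 at 48 h. Its rise was 3.96 ± 0.52 (adjusted p = 1.71e-06), with all 48 h mice close together. The ligand gene Tgfb3 rose by 3.0 ± 0.52, Ltbp1 by 2.47 ± 0.47 and Ltbp3 by 1.48 ± 0.23. Itgb5, a subunit of an integrin that can activate latent TGF-beta, rose by 1.69 ± 0.31. On the endothelial BMP side, Acvrl1 (the ALK1 receptor) fell by 1.09 (SE 0.19, adjusted p = 0.000121) and its co-receptor Eng (endoglin) by 0.86 (SE 0.17), the only calls among 12 BMP and ALK1 genes. Without 48 h mouse 7, 2 members of that list also rose.

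Of 16 Notch and arterial identity genes, 5 rose and none fell. Without 48 h mouse 7 the counts were 8 and 1, without 48 h mouse 8 they were 3 and 1, and without both they were 7 and 2. Heyl, a Notch target transcription factor, was at 8.25, 8.88, 8.09, 8.59 and 9.40 at 2 weeks, against 3.27, 5.43, 4.23 and 3.71 at 48 h, and rose by 4.48 ± 0.64 (adjusted p = 7.09e-06). Notch3, the Notch receptor of mural cells, rose by 2.53 ± 0.31 and the ligand gene Jag1 by 0.96 ± 0.28. Jag1 had an adjusted p of 0.0623 without 48 h mouse 8.

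Macrophage markers were higher at 2 weeks and neutrophil markers lower. Of 15 macrophage markers, 7 rose and none fell (median 1.42), and the counts were 7 rises and 1 fall without 48 h mouse 7 and also without mice 7 and 8. Their mean level was 8.44, 8.51, 8.06, 8.21 and 7.82 at 2 weeks, against 7.04, 5.66, 7.85 and 6.66 at 48 h, so that 48 h mouse 8 overlapped the lowest 2-week mouse and 48 h mouse 7 was lowest of all. Of the 16 measured, 1 was below the array median on all 9 arrays.

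Ms4a7, a membrane protein of monocyte-derived and tissue macrophages, was at 9.85, 9.90, 9.57, 9.32 and 9.24 at 2 weeks, against 6.18, 4.59, 8.22 and 4.86 at 48 h, a rise of 3.61 ± 0.56 (adjusted p = 2.42e-05). The 3 chains of complement C1q, which macrophages make, rose by 2.45 ± 0.47 (C1qa), 2.72 ± 0.66 (C1qb) and 2.48 ± 0.59 (C1qc). C1qb was at 8.82, 8.84, 8.15, 8.32 and 8.0, against 4.79, 4.88, 7.84 and 5.31, with 48 h mouse 8 again close to the 2-week range. Aif1 (IBA1) rose by 2.68 ± 0.71. Mpeg1 (perforin-2) was at 10.16 to 10.69 at 2 weeks and at 9.62, 6.53, 9.50 and 9.20 at 48 h, and was not called (adjusted p = 0.0904). Of 9 markers of resident-type macrophages, none rose and 2 fell: F13a1 (coagulation factor XIII A chain) by 2.58 (SE 0.57) and the haemoglobin scavenger receptor Cd163 by 2.13 (SE 0.61). Cd163 was at 4.52, 4.25, 4.91, 4.16 and 3.63 against 5.50, 7.15, 8.44 and 4.62, and its adjusted p was 0.0972 without 48 h mouse 8. Without 48 h mice 7 and 8 the resident-type count was 3 rises and 1 fall, and without mouse 8 alone 1 and 1.

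MHC class II genes, dendritic cell markers and some lymphocyte genes rose as well. Of 10 MHC class I genes 1 rose and none fell (median 0.45), beside 7.03% rising over all tested genes. No class I gene was called in a fit of the 2 groups alone, and 7 rose without 48 h mice 7 and 8. Of 11 MHC class II genes 8 rose and none fell (median 1.40); the rises numbered 6 without 48 h mouse 7, 5 without mouse 8 and 3 without both. Cd74, the invariant chain, was at 11.09, 11.27, 10.71, 10.89 and 10.68 at 2 weeks, against 8.99, 8.09, 8.80 and 9.34 at 48 h. It rose by 2.12 ± 0.61 (adjusted p = 0.0173; 0.0877 without mice 7 and 8), and H2-Eb1, a class II beta chain, by 2.17 ± 0.48. Of 9 dendritic cell markers 5 rose and none fell, among them the lectin Cd209a (1.75 ± 0.33), the cytokine receptor Flt3 (1.37 ± 0.30) and Cd83 (1.41 ± 0.31); without mice 7 and 8, 3 rose. Flt3 had an adjusted p of 0.0602 in a fit of the 2 groups alone. Under the stricter filter on low values no dendritic cell marker was called.

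Of 10 T cell markers 4 rose, and the count was also 4 without 48 h mouse 7 and without 48 h mice 7 and 8. None was called under the stricter filter on low values, which leaves low genes untested. Of the 14 measured, 4 were below the array median on all 9 arrays, and the mean over the tested ones was 4.90 to 5.65 at 2 weeks against 4.26 to 4.49 at 48 h. The part of changed cell numbers in these leukocyte results was not tested. Cd3e, a chain of the T cell receptor complex, was at 5.57, 5.24, 5.54, 3.92 and 4.18 at 2 weeks, against 3.49, 3.31, 3.19 and 3.17 at 48 h. The 48 h values were at the low end of the arrays, and the 2-week mice 9 and 10 were well below mice 6, 7 and 8. Cd3d rose by 0.96 ± 0.23 and the T cell chemokine receptor Cxcr3 by 1.03 ± 0.25. Ccl5, a chemokine of T and NK cells, was at 7.25, 7.42, 6.47, 6.01 and 6.90, against 4.05, 3.90, 3.71 and 3.39, and rose by 3.05 ± 0.52 (adjusted p = 8.23e-05). The granzyme Gzma rose by 2.25 ± 0.56, with an adjusted p of 0.0573 without 48 h mice 7 and 8.

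Of 9 neutrophil markers none rose and 4 fell (median -2.23). Their mean level was 4.52, 4.33, 3.97, 4.27 and 4.38 at 2 weeks, against 7.98, 4.58, 6.33 and 6.62 at 48 h, so that 48 h mouse 7 lay close to the 2-week mice. Without 48 h mouse 7 the falls numbered 8, without mice 7 and 8 they numbered 7, and without 48 h mouse 6, the highest, 1 fell. Under the stricter filter on low values no neutrophil marker was called. Of the 14 measured, 4 were below the array median on all 9 arrays. Cxcr2, the neutrophil receptor for CXC chemokines, was at 2.91, 3.08, 2.89, 2.97 and 2.72 at 2 weeks, against 7.87, 3.31, 5.55 and 6.89 at 48 h. It fell by 2.99 (SE 0.80, adjusted p = 0.01; 0.0699 without 48 h mouse 6). Hdc, which makes histamine in neutrophils and mast cells, fell by 3.42 (SE 0.80, adjusted p = 0.00365). S100a8 and S100a9, the calprotectin subunits, were at 4.25 to 5.93 and 5.71 to 7.88 at 2 weeks, against 5.45 to 10.28 and 7.99 to 11.46 at 48 h, and were not called (adjusted p = 0.0726 and 0.0918).

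Genes of the interleukin-1 system followed the neutrophil markers over the mice. Of 10 tested, none rose and 4 fell (median -1.68), with list means of 4.72, 5.07, 4.62, 4.62 and 4.71 at 2 weeks and 7.43, 4.91, 6.40 and 6.35 at 48 h. Without 48 h mouse 7, 6 fell and 1 rose; without mice 7 and 8, 5 fell and 1 rose; and without 48 h mouse 6, 2 fell. The decoy receptor Il1r2, which neutrophils carry, was at 3.70, 3.58, 3.74, 4.36 and 3.67 against 9.72, 4.64, 6.28 and 7.64, and fell by 3.26 (SE 0.89, adjusted p = 0.012; 0.0901 without mouse 6). The receptor antagonist Il1rn fell by 2.42 (SE 0.62; adjusted p = 0.0665 without mouse 6) and the receptor accessory chain Il1rap by 1.56 (SE 0.34). Il33, an alarmin of stromal and endothelial cells, fell by 3.70 (SE 1.01), and 48 h mouse 8 was the highest at 9.91; without it the adjusted p was 0.0718. Among chemokines, Ccl2, which draws monocytes, fell by 2.26 (SE 0.56; adjusted p = 0.0521 without mouse 8). Cxcl1, a neutrophil attractant, rose by 1.17 ± 0.26 and lay at 9.93 to 10.28 at 2 weeks against 7.90 to 9.65 at 48 h.

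**Figure D2:**
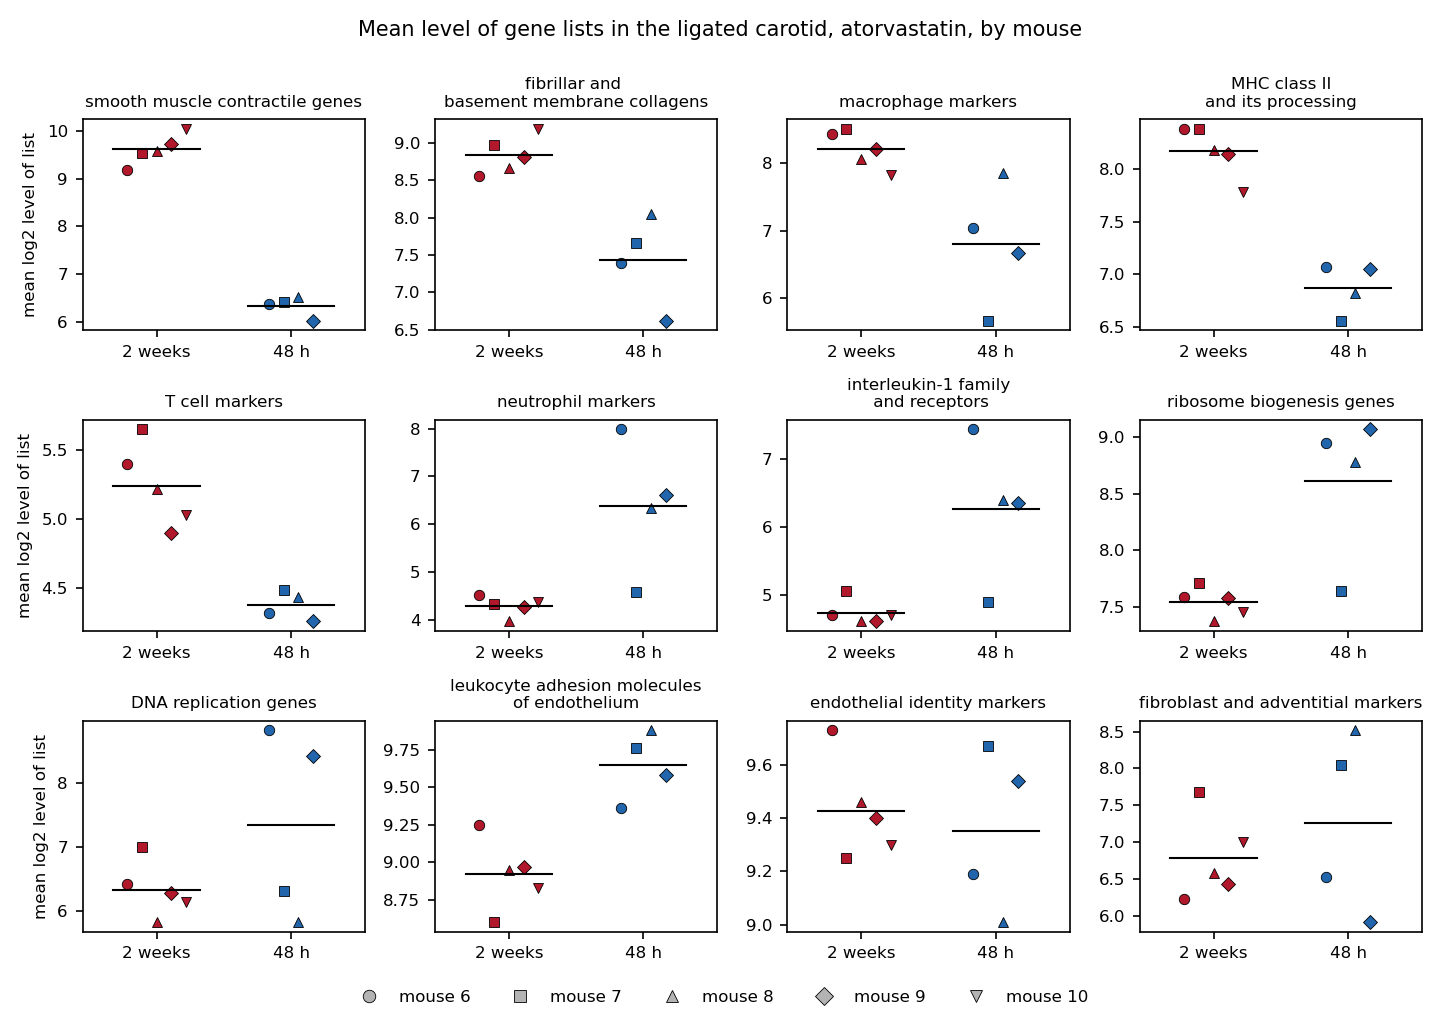
Mean log2 level over the tested members of 12 gene lists (y axis, own scale in each panel) in each mouse, 2 weeks in red left of 48 h in blue, with a line at the group mean and a symbol for the mouse number. Contractile genes separate the times in every mouse (9.18 to 10.04 against 6.02 to 6.51), while 48 h mouse 7 lies near the 2-week mice in neutrophil (4.58), interleukin-1 (4.91) and ribosome biogenesis genes (7.64).

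Endothelial markers had similar mean levels at the 2 times. Of 20 endothelial markers 1 rose and 2 fell (median -0.02), near the 7.03% and 7.73% over all tested genes. The list mean was 9.25 to 9.73 at 2 weeks and 9.01 to 9.67 at 48 h, overlapping. Without 48 h mouse 7, 3 rose and 2 fell, and without mice 7 and 8, 3 and 3. With array weights 10 of the 20 were called. Cdh5 (VE-cadherin) was at 11.05, 10.86, 10.68, 11.01 and 10.82, against 11.01, 11.06, 11.07 and 11.41, a difference of -0.26 ± 0.15 that was not called. The von Willebrand factor gene Vwf was at 11.32 to 11.72 against 10.35 to 11.77. Both defining endothelial markers were thus far above the array median in every mouse at both times. Robo4, an endothelial guidance receptor, rose by 1.63 ± 0.27 (adjusted p = 5.43e-05), while Eng and Ecscr, an endothelial surface protein, fell by 0.86 (SE 0.17) and 0.55 (SE 0.12).

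Flow-responsive genes did not move as one. Of 16 tested 2 rose and 4 fell, or 2 and 2 without 48 h mouse 8, without both 48 h mice 7 and 8, and without 2-week mouse 10. Klf2, the transcription factor induced by steady laminar flow, was at 8.53, 7.64, 9.44, 8.55 and 8.10 at 2 weeks, against 6.62, 6.95, 7.53 and 6.27 at 48 h. Its rise of 1.61 ± 0.30 (adjusted p = 0.000271) left it below the RCA, where it was at 10.22 to 10.46 at 2 weeks and 9.30 to 9.6 at 48 h. Klk10, a secreted kallikrein-related protein of endothelium under steady flow, went the other way, at 4.67, 4.11, 4.48, 4.57 and 3.85 against 5.24, 6.54, 6.83 and 5.58. It fell by 1.71 (SE 0.45, adjusted p = 0.00878; 0.139 without mice 7 and 8). Its RCA level stayed between 10.1 and 10.6 at both times. S1pr1, the sphingosine-1-phosphate receptor of endothelium, fell by 1.0 (SE 0.26). Nos3 (endothelial nitric oxide synthase) was at 5.99 to 6.92 against 6.50 to 7.25 and Klf4 at 7.65 to 9.46 against 7.78 to 10.22, and neither was called (adjusted p = 0.108 and 0.346).

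Of 8 endothelial adhesion molecules for leukocytes 4 fell and none rose, with means of 8.60 to 9.25 at 2 weeks, all below the 9.36 to 9.88 at 48 h. The falls numbered 4 without 48 h mouse 7, 3 without mice 7 and 8, and 2 without 48 h mouse 8 or without 2-week mouse 9. Selp (P-selectin) was at 10.09, 9.38, 9.67, 9.63 and 9.26, against 11.03, 10.91, 11.48 and 10.92, and fell by 1.48 (SE 0.15, adjusted p = 9.89e-09). Vcam1 fell by 1.28 (SE 0.28), with 7.48 to 8.14 against 8.33 to 9.46. Sele (E-selectin) was at 8.17 to 8.65 against 10.74, 8.48, 11.52 and 10.65, so that 48 h mouse 7 was within the 2-week range; it fell by 1.99 (SE 0.61, adjusted p = 0.0258), and its adjusted p ran from 0.0503 to 0.0969 without each of 2-week mice 9 and 10 and 48 h mice 6, 8 and 9. Icam1 fell by 0.46 (SE 0.13; adjusted p = 0.0843 without 48 h mouse 8 and 0.0513 without 2-week mouse 9). Of 11 coagulation and fibrinolysis genes 5 fell and none rose, led by Plat (tissue plasminogen activator, 2.50 lower, SE 0.43) and Plaur (the urokinase receptor, 2.14 lower, SE 0.41).

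Several of the largest falls were genes that the RCA kept at a high level. Igf2, a fetal-type growth factor, was at 3.40, 2.85, 2.75, 3.20 and 3.49 at 2 weeks, against 6.54, 8.18, 8.87 and 7.14 at 48 h, and fell by 4.54 (SE 0.48, adjusted p = 3.33e-08). In the RCA of the same mice Igf2 was at 8.89 to 9.52 at 2 weeks and 9.44 to 9.68 at 48 h. Igfbp2, a binding protein for insulin-like growth factors, moved in the opposite direction, at 8.41, 8.73, 7.75, 8.97 and 9.40 against 3.68, 3.82, 3.97 and 3.53. Slc4a4, a sodium bicarbonate cotransporter, fell by 3.21 (SE 0.43), Mal, a membrane raft protein, by 3.63 (SE 0.61) and the kallikrein-related Klk11 by 3.04 (SE 0.55). In these 3 genes 48 h mice 7 and 8 were the highest, as in Klk10. In the RCA of both times Slc4a4 was at 10.2 to 10.6, Mal at 9.1 to 9.9 and Klk11 at 8.2 to 8.7.

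Prg4 (lubricin), a joint and serosal lubricant protein, was at 4.03, 4.55, 4.14, 3.5 and 3.09 against 7.78, 7.76, 10.72 and 7.98, and fell by 4.7 (SE 0.83, adjusted p = 0.000159). Steap4, a metalloreductase, fell by 3.77 (SE 0.71), Pdpn (podoplanin), a marker of lymphatic endothelium and fibroblasts, by 3.37 (SE 0.83) and Gfpt2, an enzyme of the hexosamine pathway, by 3.07 (SE 0.66). In all 4 genes 48 h mouse 8 had the highest level. Beside them, fibroblast and adventitial markers had means of 6.23, 7.68, 6.59, 6.44 and 7.01 at 2 weeks, against 6.53, 8.05, 8.52 and 5.92 at 48 h, and 2 of 12 tested fell (Dpt by 2.51, SE 0.86, and Scara5 by 2.75, SE 0.93). Both calls were lost without any 1 of 2-week mice 6, 8 and 9 and 48 h mice 6, 7 and 8, with adjusted p up to 0.141 for Dpt and 0.164 for Scara5. Without 48 h mice 7 and 8, 4 members of the list rose and none fell. Of the 13 measured fibroblast markers 1 was below the array median on all 9 arrays. The part of these cells in the falls was not tested.

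Genes of growth were lower at 2 weeks. Of 15 ribosome biogenesis genes 14 fell and none rose (median -1.09); 14 fell without 48 h mouse 7, 15 without mice 7 and 8, 8 without 48 h mouse 9 and 9 without 48 h mouse 6. In a fit of the 2 groups alone 4 of the 15 were called. In 4 of the 15 every 2-week array lay below every 48 h array, against 5.23% over all tested genes. The list mean was 7.59, 7.71, 7.37, 7.58 and 7.45 at 2 weeks, against 8.95, 7.64, 8.78 and 9.07 at 48 h. Polr1b, a subunit of RNA polymerase I, fell by 1.44 (SE 0.23, adjusted p = 4.73e-05), Utp4, a processing factor of the small ribosomal subunit, by 1.46 (SE 0.32) and the box C/D ribonucleoprotein Nop58 by 1.54 (SE 0.39; adjusted p = 0.0502 without 48 h mouse 8).

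DNA replication genes fell in 4 of 21 cases, with a median of -0.91, and the call count rested on which 48 h mice were used. It was 12 without 48 h mouse 7, 15 without mouse 8, 21 of 21 without both, and 1 without mouse 6 or mouse 9. The list mean was 8.83 and 8.42 in 48 h mice 6 and 9, but 6.32 and 5.83 in mice 7 and 8, against 5.83 to 7.0 at 2 weeks. Cdc6, a factor that loads the replicative helicase, was at 6.12, 6.10, 5.41, 5.38 and 5.01 against 8.64, 6.86, 7.66 and 8.14, and fell by 2.22 (SE 0.36, adjusted p = 4.88e-05). Mcm4, a subunit of that helicase, fell by 1.46 (SE 0.41) and had an adjusted p of 0.12 without 48 h mouse 6 and 0.0765 without mouse 9. Of 19 mitosis genes none was called (median 0.32; 2 fell without mice 7 and 8). The cell cycle inhibitor Cdkn2b rose by 1.31 ± 0.30 and the cyclin Ccng2, which is linked to growth arrest, by 0.84 ± 0.20.

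Signalling genes of growth factor and stress pathways fell in part. Of 17 immediate early genes 3 fell and none rose, or 6 and none without 48 h mouse 7 and 3 and none without mice 7 and 8. Over all tested genes 7.73% fell and 7.03% rose. Fosl1, a member of AP-1, was at 4.34, 4.52, 4.72, 4.77 and 4.91 against 6.48, 5.17, 9.61 and 7.64, and fell by 2.57 (SE 0.51, adjusted p = 0.000558), with 48 h mouse 8 highest. In a fit of the 2 groups alone the adjusted p of Fosl1 was 0.0582. Ier3 fell by 0.90 (SE 0.20), and Spry2, a feedback inhibitor of growth factor signalling, by 1.46 (SE 0.28).

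Of 19 glycolysis and hypoxia genes 7 fell and none rose, with 10 falls without 48 h mouse 7, 8 without mice 7 and 8, and 2 to 4 without each of 48 h mice 6, 8 and 9 and 2-week mice 7 and 8. Of 16 NRF2 targets 4 fell and 1 rose, among the falls Gclc, the rate-limiting enzyme of glutathione synthesis (0.89 lower, SE 0.20), and Srxn1 (sulfiredoxin, 1.05 lower, SE 0.21); without 48 h mouse 6, 2 fell and none rose, and without each of 48 h mice 8 and 9 and 2-week mice 6 and 8, 3 fell and none rose. Of 15 genes of cholesterol synthesis and uptake, the pathway atorvastatin acts on, 3 fell and none rose (median -0.56). Without 48 h mouse 6 no member was called, without 48 h mouse 7 5 fell and 1 rose, and without mice 7 and 8 7 fell. Idi1, an isomerase of isoprenoid synthesis, was at 7.95, 8.29, 7.38, 7.54 and 7.59 against 9.70, 8.30, 8.31 and 9.05, and fell by 1.09 (SE 0.29; adjusted p = 0.0748 without 48 h mouse 6). Sqle (squalene epoxidase) was at 3.61 to 4.61 against 3.58 to 5.87 and Insig1 at 7.52 to 8.25 against 8.23 to 8.98, and neither was called (adjusted p = 0.223 and 0.0529). Hmgcs1 was below the array median on all 9 arrays and was not tested.

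Lipid genes gave a mixed picture. Of 14 lipid-handling genes 3 rose and 1 fell, with 2 or 3 rises and no fall without each mouse but 48 h mouse 7. Over all tested genes 7.03% rose and 7.73% fell. Fabp4, a fatty acid binding protein of capillary endothelium, macrophages and fat cells, was at 9.82, 9.96, 10.15, 11.11 and 10.86, against 7.31, 8.04, 8.15 and 7.43, and rose by 2.65 ± 0.58 (adjusted p = 0.00192). Abcg1, a cholesterol exporter, rose by 0.97 ± 0.23 (adjusted p = 0.0878 without mice 7 and 8). Angptl4, an inhibitor of lipoprotein lipase, fell by 2.57 (SE 0.50). Adipocyte markers, of which 5 were tested, had means of 4.51 to 5.34 at 2 weeks and 3.90 to 4.20 at 48 h, and Fabp4, which is also on that list, was the only call among them. Of the 5 measured, 3 were below the array median on all 9 arrays.

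The unligated RCA of the same mice had few calls. Its median difference was 1.32 over adipocyte markers and 2.58 over erythroid markers, with no member of either list called. Between 2 weeks and 48 h 4 genes were called in the RCA (0.0353%), 1 higher (0.00882%) and 3 lower (0.0264%), with 623 at an unadjusted p under 0.05. The difference between times in the LCA minus RCA of each mouse was called for 944 genes (8.32%), 485 positive (4.28%) and 459 negative (4.05%). That count was 1563 without 48 h mouse 7 and 1765 without mice 7 and 8. By list, the difference was positive in 8 of 12 contractile genes, 12 of 17 collagens, 4 of 11 MHC class II genes and 1 of 10 T cell markers. It was negative in 7 of 15 ribosome biogenesis genes, and no lipid-handling gene was called. The leading genes were picked for large LCA differences, which also enter the LCA minus RCA test. Calls among them are therefore no separate support. All 12 of the largest rises were called in this test, among them Igfbp2 at 5.14 ± 0.44 (adjusted p = 1.28e-09), Actg2 at 5.11 ± 0.59 and Acan at 4.92 ± 0.51. Of the 12 largest falls, 6 were called: Igf2, Mal, Hdc, Il1r2, Slc4a4 and Klk11.

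The other 6 falls were not called for a difference between the arteries, and their RCA differences of -2.20 (Prg4) to -1.05 (Pdpn) were not called either. Mmp3 differed by -2.10 in the RCA (adjusted p = 0.394) and Prg4 by -2.20 (adjusted p = 0.715), and their LCA minus RCA differences were -1.18 and -2.51 and not called (adjusted p = 0.401 and 0.172). Tpm2 was 2.04 higher in the RCA (adjusted p = 0.625), with values of 7.92 to 8.97 at 2 weeks against 5.85 to 7.30 at 48 h. Klf2 was called in both arteries, and the rise in the LCA did not differ from that of 0.88 in the RCA beyond its error (difference 0.73, adjusted p = 0.127). Hba-a1, an alpha globin of red cells, rose in the LCA by 3.83 ± 0.98, at 11.02, 7.10, 9.93, 10.70 and 10.97 against 4.92, 7.53, 5.65 and 6.38, and was 3.5 higher in the RCA (adjusted p = 0.704). The neutrophil markers S100a8 and S100a9 were 2.11 and 2.92 higher in the RCA at 2 weeks (adjusted p = 0.108 and 0.152). Their LCA minus RCA differences of -5.12 ± 1.13 and -5.82 ± 1.18 were the 2 most negative among called named genes (adjusted p = 0.00321 and 0.00146).

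**Figure D3:**
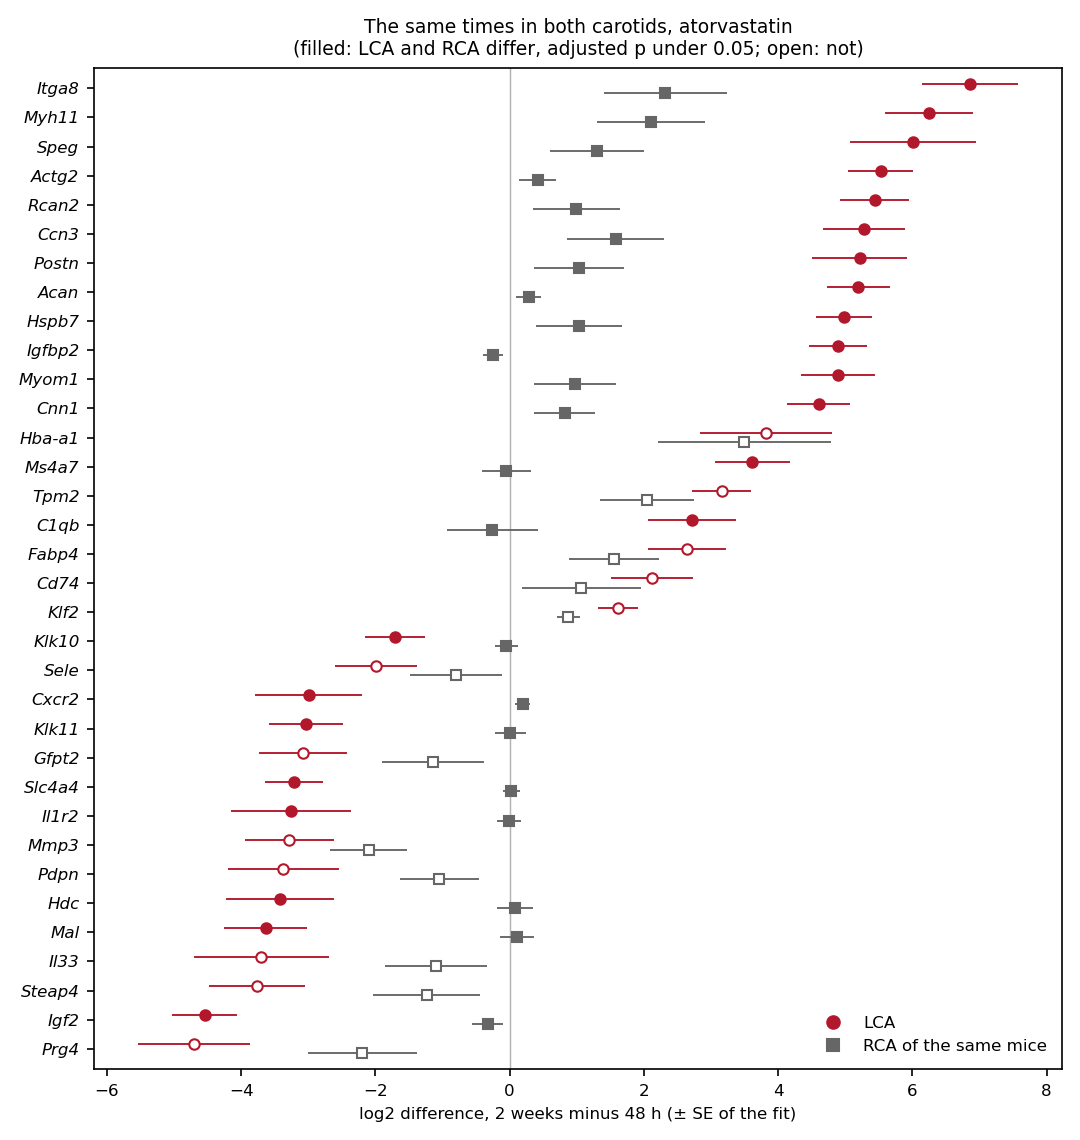
Log2 difference between 2 weeks and 48 h (x axis, ± SE of the fit) in the LCA (red circles) and in the RCA of the same mice (grey squares) for the 24 leading genes and 10 others named in the text, filled where the difference between arteries had an adjusted p under 0.05. Igf2, Mal, Hdc and Il1r2 lie far to the left in the LCA and near 0 in the RCA, whereas both arteries of Hba-a1 lie near 3.5 to 3.8.

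The same times in vehicle-treated mice gave 1727 called genes (15.2%), 643 higher (5.67%) and 1084 lower (9.56%). Of the 1675 genes called under atorvastatin, 969 were called in the same direction in vehicle (57.9% of the atorvastatin calls and 56.1% of the vehicle calls) and none in the opposite direction. The 12 largest rises were all called in vehicle, with differences of 3.29 to 5.69, and of the 12 largest falls 9 were. No gene was called for a difference of the time contrast between treatments with limma (0.0%), with 199 genes at an unadjusted p under 0.05, and the count was 0 in every alternative run. A missed threshold does not show that the treatments were alike. Igf2 fell by 4.54 under atorvastatin and by 2.77 in vehicle, and Selp by 1.48 and 0.89. DNA replication genes fell in 4 of 21 cases under atorvastatin and in 18 of 21 in vehicle, and T cell markers rose in 4 and 9 of 10 cases, but the interaction was called for no member of either list.

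Set in the whole time course, the genes followed several courses. Myh11 averaged 5.67 ± 0.97, 6.19 ± 0.56, 4.49 ± 0.58 and 10.74 ± 0.46 in the LCA under atorvastatin at 12 h, 24 h, 48 h and 2 weeks (SD, n = 5, 5, 4 and 5), so that it was high at 2 weeks only. Acan was at 4.08 ± 0.21, 3.88 ± 0.20, 3.76 ± 0.07 and 8.96 ± 0.43 over the same times. Ltbp2 was already at 7.09 ± 0.30 at 48 h, against 4.89 ± 0.73 at 12 h and 5.0 ± 0.74 at 24 h, and Cd74 was at 6.58 ± 1.1, 7.43 ± 0.93, 8.81 ± 0.53 and 10.93 ± 0.25. Cxcr2 was highest at 48 h (5.91 ± 1.97), with 3.04 ± 0.88 at 12 h, 3.26 ± 0.96 at 24 h and 2.91 ± 0.13 at 2 weeks. Nop58 was also highest at 48 h, at 9.09 ± 1.21, with 7.69 ± 0.78 at 12 h and 7.55 ± 0.19 at 2 weeks. Klk10 was lower at each later time, at 8.87 ± 0.35, 7.81 ± 0.53, 6.05 ± 0.76 and 4.34 ± 0.35. Klf2 was at 7.05 ± 0.18, 7.65 ± 0.33, 6.84 ± 0.53 and 8.45 ± 0.67, lowest at 48 h. The steps between neighbouring times were not tested apart from that between 48 h and 2 weeks.

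**Figure D4:**
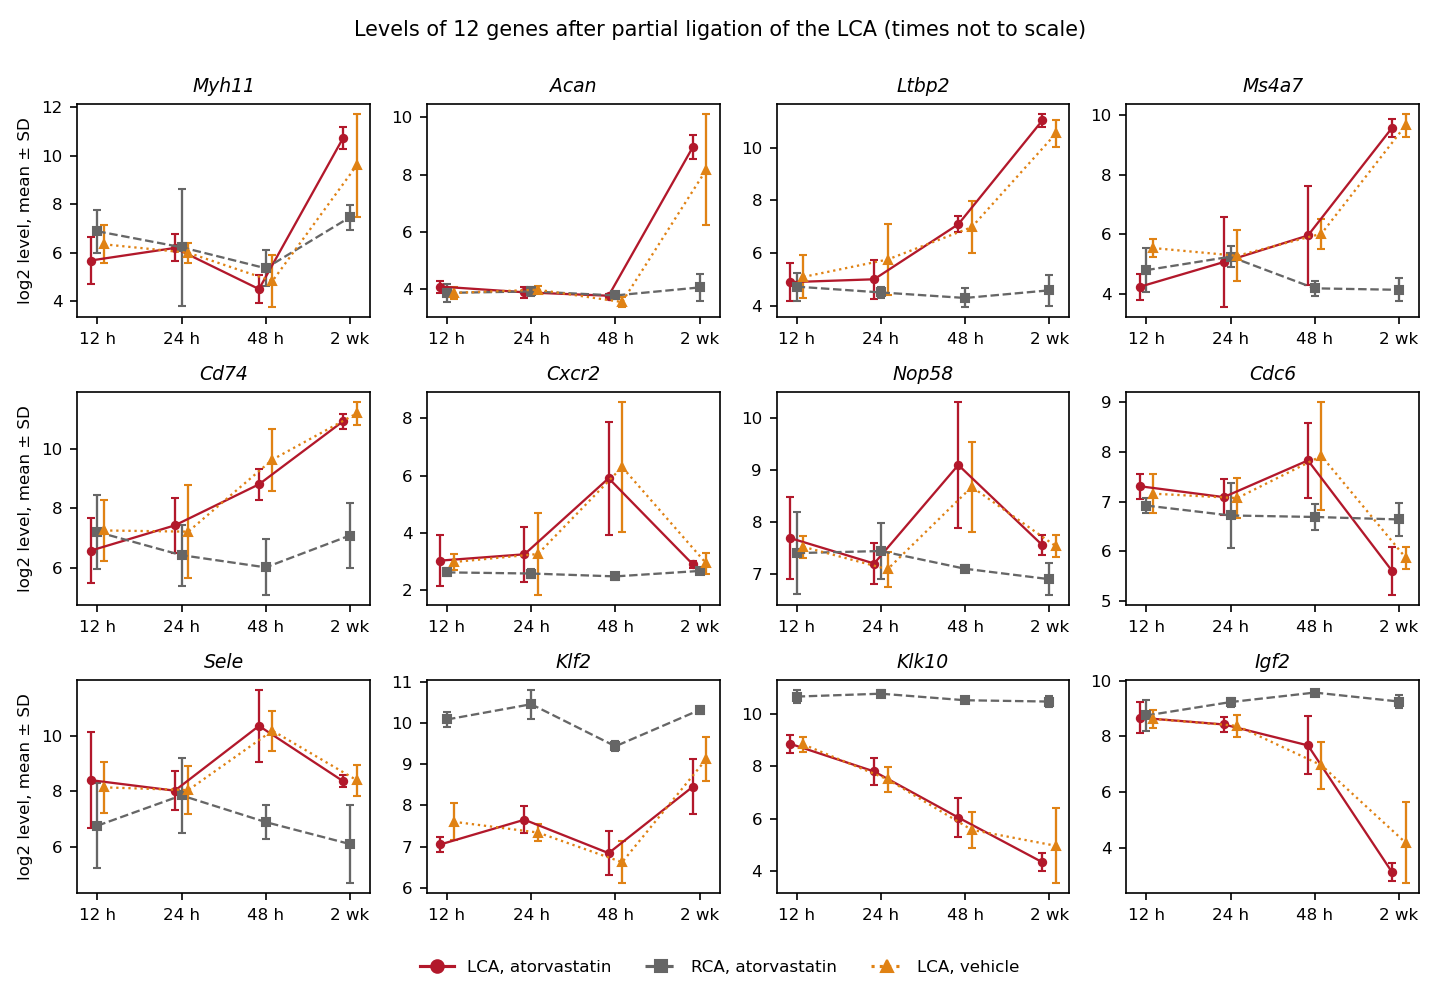
Mean log2 level ± SD (y axis) of 12 genes at 12 h, 24 h, 48 h and 2 weeks in the LCA under atorvastatin (red), its RCA (grey, dashed) and the LCA under vehicle (orange, dotted), with 4 or 5 mice per point and times not to scale. Myh11 and Acan are high in the LCA at 2 weeks alone (10.74 and 8.96 under atorvastatin), Cxcr2 peaks at 48 h (5.91), and Klk10 is lower at each later time (4.34 at 2 weeks) while its RCA stays near 10.5.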

How the data were processed

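Affymetrix arrays measured RNA of both carotids of 39 mice (78 arrays, 16 groups). The authors deposited log2 expression values. The submitters' processing notes name RMA, and its version is not given in the labels read here. Of 45118 probe sets, 81 were controls, 28898 had 1 gene symbol, 551 several and 15588 none. The probe set with the highest mean stood for each of 17097 genes. The 11344 genes above their array's median on at least 4 of all 78 arrays, LCA or RCA, were tested.

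limma 3.58.1 (R 4.3.3) fitted the 8 LCA groups of 39 arrays together. The RCA comparison and the LCA minus RCA difference of each mouse were fitted alike, and the interaction compared the time difference with that of vehicle. Members, lists and tests were chosen with earlier results of these data known. The text names genes among the 12 largest called rises and 12 largest called falls with no overlap of arrays (predicted genes left out), the lists' called members with the largest differences, the highest cell markers, and a fixed set of flow, adhesion and sterol genes. Each LCA array is a separate mouse per the labels, so p-values weigh a difference against the spread between mice, pooled over the 8 LCA groups. Batch was not modelled, and a batch that ran with time could not be told apart from time. On simulated data of 11344 genes the main comparison recovered 65.8% of changes of 1 log2 unit and 93.6% of 2, with 5.1% false calls. Whether these rates hold for the deposited arrays, which were less alike at 48 h than at 2 weeks, was not tested. Alternatives covered filters, probe set choice, scaling, weights, blocks and left-out mice.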

Additional observations from a re-analysis of the deposited data

Results flagged for a closer look

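Dixon's test on a group's highest or lowest mouse marked 5 of the leading genes, 5 list means and 1 array quality ratio. Chance marks about 1 in 20 groups, and many groups were tested over the genes, lists and array measures. The number of marks was not compared with the number that chance would give. The marks alone therefore do not show that any mouse was unusual. At 2 weeks the marked genes were Ccn3 in mouse 6 (9.24, low) and Il33 in mouse 7 (4.69, high). Il1r2 in mouse 9 (4.36, high) and Klk11 in mouse 8 (4.25, high) were also marked at 2 weeks. At 48 h the marked gene was Prg4 in mouse 8 (10.72, high). The list means were those of interleukin-1 genes in 2-week mouse 7 (5.07, high), angiogenic tip cell genes in 2-week mouse 8 (5.64, low), Wnt pathway genes in 2-week mouse 10 (7.22, high), and growth arrest genes (8.11, high) and NRF2 targets (8.85, high) in 48 h mouse 8. The beta-actin 3′ to 5′ probe ratio of 2-week mouse 7 was 0.15 on the log2 scale.

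The change over time differed between the LCA and the RCA of the same mice, by limma's test of that difference, in 18 of the 24 leading genes. These genes were picked for large LCA differences, which are part of that test. Over all tested genes 8.32% were called in it. For the rises, the LCA change minus the RCA change was 5.14 for Igfbp2, 5.11 for Actg2, 4.92 for Acan, 4.71 for Speg, 4.54 for Itga8, 4.44 for Rcan2, 4.18 for Postn and 4.14 for Myh11. It was 3.95 for Hspb7, 3.91 for Myom1, 3.78 for Cnn1 and 3.71 for Ccn3. For the falls it was -4.22 for Igf2, -3.74 for Mal, -3.49 for Hdc, -3.25 for Il1r2, -3.24 for Slc4a4 and -3.05 for Klk11.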

How the results depend on the processing

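The comparison gave 1675 calls. Fits of the 2 groups alone gave 754, of which 699 were among the 1675, array weights gave 5211, and a minimum difference of 1 log2 unit gave 811. The groups alone ended the calls of Ccl2, Cd163, Dpt, Flt3, Fosl1, Gzma, Icam1, Idi1, Il1rn, Mcm4, Nop58 and Scara5, with adjusted p of 0.0512 (Gzma) to 0.197 (Scara5). Leaving out each mouse gave 1010 to 2718 calls, lowest without 48 h mouse 9, then 1090 without 48 h mouse 6, and highest without 48 h mouse 7, and leaving out 48 h mice 7 and 8 gave 3213. The other settings stayed within 1.5 times of the count: no filter (1600), a stricter filter (1363), the mean of a gene's probe sets (1928), quantile normalization (1692), arrays centred on their medians (1917), eBayes with trend and robust (1699), the Gapdh end ratio as a covariate (1838) and the number in the titles as a random block (1678). For the LCA minus RCA difference (944), the groups alone gave 465, array weights 2751, leaving out each mouse 612 to 1563 and leaving out 48 h mice 7 and 8 1765. The interaction with vehicle gave 0 throughout. Under the stricter filter the neutrophil, T cell, NK and dendritic cell lists had no called member. Klf4, not called, changed sign with array weights (0.08) and without 48 h mice 7 and 8 (0.40). The cause of these moves was not tested. With mouse number as a replicate block, fitted only on mice 6 to 9 of the 2 groups, the count was 167 (166 among the 1675). In that fit 62 of the named genes lost their call. It used fewer arrays as well as a block, and the 2 cannot be told apart. Deviations of same-numbered mice at the 2 times correlated at 0.041, -0.394, 0.162 and 0.044 for mice 6, 7, 8 and 9, so the numbers do not pair these different animals. Precision is limited by the number of arrays, 5 and 4.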

Other observations

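Other lists gave these counts for 2 weeks against 48 h in the LCA under atorvastatin. Of 5 synthetic smooth muscle and osteochondrogenic genes 3 rose and none fell, also without 48 h mouse 7, and their mean was 6.75 to 7.35 at 2 weeks against 5.24 to 5.43 at 48 h. Of 6 NK and cytotoxic markers 3 rose, or 1 without 48 h mice 7 and 8, and none was called under the stricter filter on low values. Of 13 complement genes 4 rose and 1 fell, with 4 and 2 without 48 h mouse 7 and 4 and none without mice 7 and 8. No call was made among 5 platelet and 3 mast cell markers, and no thyroid or parathyroid marker passed the filter on low values.

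Several lists depended on single mice. Of 13 angiogenic tip cell genes 1 rose and 4 fell, with 1 and 7 without 48 h mouse 7 and 1 and 2 without 2-week mouse 8. Of 3 lymphatic endothelial markers 2 fell, or 1 without 2-week mouse 7, 2-week mouse 10 or 48 h mouse 9. Glucocorticoid-responsive genes fell in 2 of 12 cases, but rose in 6 and fell in 3 without 48 h mouse 7. Of 15 circadian clock genes 3 rose and 2 fell, with none and 4 without 48 h mouse 9, none and 1 without 48 h mouse 6, and 5 and 4 without 48 h mouse 7. Of 15 metalloproteinases and inhibitors 2 rose and 2 fell, or 3 and 6 without 48 h mouse 7 and 2 and 1 without 48 h mouse 6.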
